A study of Mus musculus with 32 samples.

Results

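UB/OC-1 cells held at 39 °C for 4 to 7 days were compared with the same line at 33 °C on day 0. UB/OC-1 is an established mouse line made from the embryonic cochlea, from the sensory strip called the organ of Corti. Lines of this kind divide at the lower temperature because of a temperature-sensitive viral T antigen, which is switched off by the shift to the higher one. Total RNA was hybridised to oligonucleotide arrays of designs a and b. The middle group held day 4, day 5, day 6 and day 7 of experiment A and day 4 of experiment B, all at 39 °C, under conditions labelled as differentiating. The control group held day 0 of experiments A and B at 33 °C, labelled as undifferentiated. Cultures entered by their labelled day and experiment, and gave 14 of the 32 samples of the series, 10 from the middle days and 4 from day 0, with n = 5 against 2 arrays per design. Temperature, time in culture and any change of medium that went with the shift cannot be told apart. The medium is not given in the sources used here. The line is 1 line, so the samples are cultures of it and not animals.

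In the developing cochlea, cells of the sensory epithelium leave the cell cycle before they become hair cells and supporting cells, and the CDK inhibitor p27 (Cdkn1b) marks that exit. In conditionally immortal cells, loss of the T antigen frees the p53 and retinoblastoma proteins that it binds. Interferon acts through JAK kinases and transcription factors on genes of antiviral GTPases and antigen presentation, and in the mouse strain used to make such lines the T antigen itself sits behind an interferon-inducible MHC class I promoter.

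Intensities are the deposited linear values. They can be negative where the background was higher than the signal. A floor of 141 on design a and 198 on design b was set under them before taking log2, so a fold is a lower bound ("at least") where every array of the dimmer group was at the floor, and a low estimate where only some were. Each change is a difference of log2 means with its standard error (SE), and passed at a limma p below 0.05 after Benjamini-Hochberg adjustment over all probe sets of both designs. Middle-day values are given in the order of days 4, 5, 6 and 7 of experiment A and then day 4 of experiment B, and day 0 values in the order of experiments A and B.

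On the 7 arrays per design, design a had 44.3% to 50.8% of its probe sets above the floor and design b 30.9% to 39.5%. Day 6 of experiment A had the highest ratio of 3' to 5' Gapdh control signal in its group, 2.65 on design a and 2.56 on design b, against 0.847 to 1.18 and 0.865 to 1.42 on the other middle arrays. Middle arrays of experiment A correlated at r = 0.904 to 0.955 with each other on design a and 0.884 to 0.938 on design b. Day 4 of experiment B correlated at 0.906 with day 4 of experiment A on both designs, and at 0.782 to 0.843 with its days 5 to 7. These are descriptions over probe sets of arrays that share a design. Day 0 of experiment A and day 0 of experiment B correlated at 0.809 and 0.883. Day 0 of experiment A correlated with the middle arrays of its own experiment at 0.806 to 0.834 on design a and 0.819 to 0.866 on design b. Day 0 of experiment B correlated with its own day 4 at 0.855 and 0.882. Day 4 of experiment B was thus closer to its own day 0 than to days 5 to 7 of experiment A. Precision is limited by the number of arrays, and nothing says whether the spread behind the p-values is more than technical.

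Of 7726 probe sets tested, 633 passed (8.19%), 279 of them higher in the middle days (3.61%) and 354 lower (4.58%). The counts on each gene list below are to be read against these shares. Because the lists were chosen with earlier results of these data known, a list share above them is a description and not a test. The change was over 2-fold in 268 of the higher and 289 of the lower. In 624 of the 633 the 5 middle arrays did not overlap the 2 day 0 arrays, which held for 1584 of all 7726 (20.5%). Without day 0 of experiment B 321 passed (137 higher, 184 lower), and without day 0 of experiment A 509 (174 higher, 335 lower). With experiment as a block 959 passed (463 higher, 496 lower), 630 of them among the 633. Without day 6 of experiment A, the culture with the high control ratio, 526 passed, 509 of them shared.

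Dcn and Iigp1 had the largest changes in either direction among probe sets with 1 symbol. Dcn, the small proteoglycan decorin, was at 89 and 61 on day 0 and at 7459, 6393, 17572, 13483 and 3486 in the middle days. It rose at least 41.9-fold (5.39 ± 0.89 SE, n = 5 against 2, adjusted p = 0.000685). At the other end, Iigp1, an interferon-inducible GTPase, was at 25730 and 7447 on day 0 and at 261, -60, 35, 29 and 130 later. It fell by 6.44 ± 0.44, 86.8-fold as a low estimate (adjusted p = 3.17e-08). Both groups of arrays were fully apart for each of these genes. The day 0 arrays of Iigp1 themselves differed, and the fold was 46.7 without day 0 of experiment A and 161 without day 0 of experiment B. In RNA from whole cultures, fewer cells of a kind and less RNA per cell cannot be told apart.

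**Figure D1:**
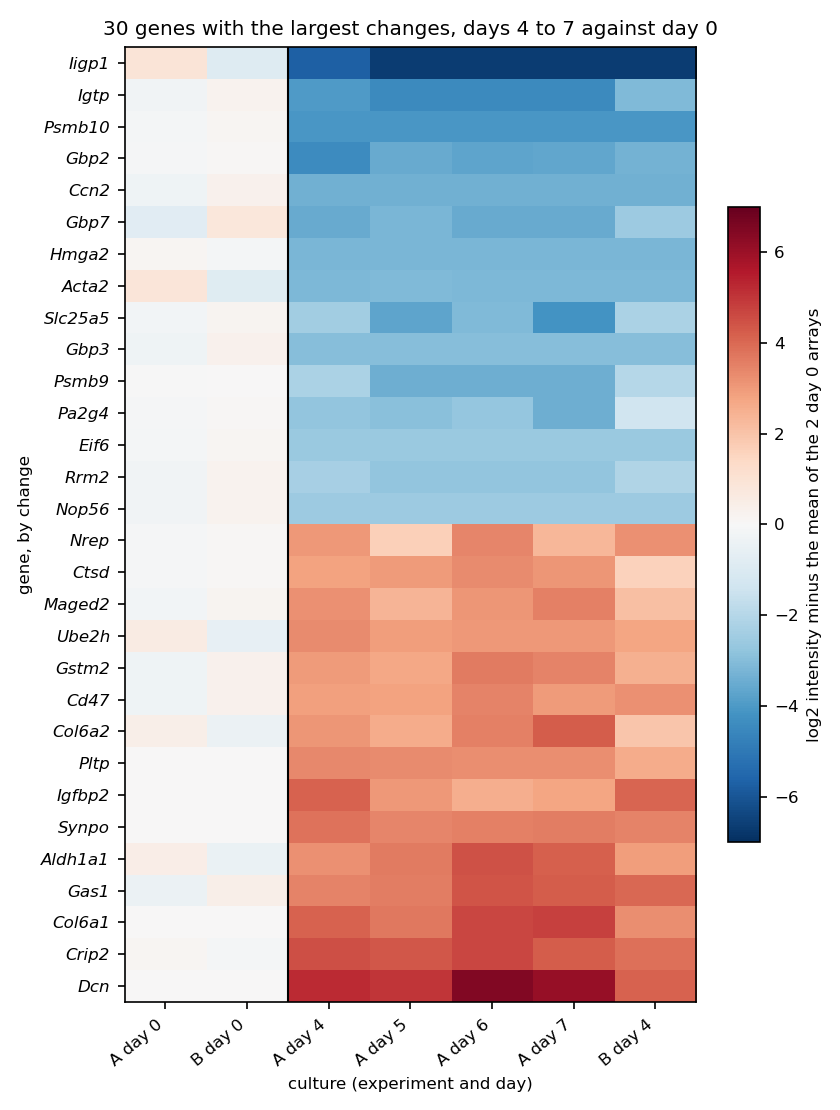
Heat map of the 15 largest decreases (top) and 15 largest increases (bottom) between day 0 and days 4 to 7, with 1 column per culture. Colour is the log2 intensity minus the mean of the 2 day 0 arrays, blue lower and red higher, and in each row the 5 columns to the right of the line lie on one side of both day 0 columns.

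Interferon-inducible GTPases held 5 of the 15 largest decreases. Of 8 probe sets tested, 5 fell, 0 rose and 3 did not pass, with a median change of -3.12 against 0.08 over all probe sets. These proteins attack the vacuoles in which intracellular pathogens live. Igtp was at 2600 and 3618 on day 0 and at 198, -20, -44, -104 and 357 later, 16.9-fold lower as a low estimate (adjusted p = 2.21e-05). The guanylate-binding protein gene Gbp2 went from 2768 and 3193 to 112, 255, 226, 235 and 295, 13.3-fold lower as a low estimate (adjusted p = 2.97e-06). For both genes the highest middle array was far below the lower day 0 array, and only Gbp2 stayed above the floor on 4 of the 5 middle arrays. Gbp3 was at the floor on all 5 middle arrays, at least 7.96-fold lower (adjusted p = 9.9e-08). Gbp7 fell by 3.26 ± 0.47, 9.55-fold as a low estimate (16.5-fold without day 0 of experiment A and 5.52-fold without day 0 of experiment B).

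Antigen presentation by MHC class I needs peptides cut by the proteasome, and interferon replaces its catalytic subunits by those of the immunoproteasome. Of 20 probe sets on this list, 7 fell, 0 rose and 13 did not pass (median -0.51). The decreases were in the cutting and transport of peptides. Psmb10, an immunoproteasome subunit, was at 2131 and 2653 on day 0 and at -117, -282, -244, -274 and 111 later, at least 16.9-fold lower (adjusted p = 8.85e-09). Psmb8, another subunit, remained measurable on every array, with 4705 and 3789 on day 0 and 1005, 616, 747, 728 and 814 later, and was 5.47-fold lower (adjusted p = 3.39e-05). All 5 middle arrays of Psmb8 lay below both day 0 arrays. Psmb9, the remaining catalytic subunit, was 7.42-fold lower as a low estimate on design a (adjusted p = 0.000343) and 3.76-fold lower on design b (adjusted p = 0.00453), both on family-shared probe sets. Psme1, a subunit of the proteasome activator, was 2.85-fold lower (adjusted p = 0.00181), and Tap1, a peptide transporter of the endoplasmic reticulum, 2.41-fold lower (adjusted p = 0.0362). The call of Tap1 ended without any one of 6 of the 7 cultures, day 4 of experiment B being the exception (adjusted p from 0.0546 without day 4 of experiment A to 0.284 without day 0 of experiment A). B2m, the light chain of class I molecules, was at 15945 and 6200 on day 0 and at 15208, 16074, 17510, 18955 and 6822 later, so the groups overlapped (0.50 ± 0.40, adjusted p = 0.577). The probe set of B2m is family-shared.

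Among interferon receptors, signalling factors and other response genes, 3 of 27 probe sets fell and 2 rose (18.5% passed, against 8.19% of all, median 0.07). The 3 that fell were targets and regulators. Irf1, a transcription factor of the response, went from 4505 and 2241 to 1096, 1053, 1328, 1152 and 712, 3.03-fold lower (adjusted p = 0.00735, but 0.174 without day 0 of experiment A). Socs1, a feedback inhibitor of JAK kinases, fell at least 4.13-fold (adjusted p = 0.000935) and Isg15, a ubiquitin-like protein, at least 1.93-fold (adjusted p = 0.000956). The 2 that rose were Ifngr1, which binds interferon gamma at the cell surface, at least 2.23-fold (adjusted p = 0.0337), and the kinase gene Jak2, 3.15-fold (adjusted p = 0.0136). Both increases failed to pass without day 0 of experiment A (0.144 and 0.0685) or B (0.184 and 0.111). That of Ifngr1 also ended without day 4, 5, 6 or 7 of experiment A (0.0525 to 0.0672).

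The promoters of the genes that fell on these 3 lists are shown because they fell together. No share was taken over list members that did not fall. The shares below therefore cannot tell being on an interferon list from falling. RefSeq promoters (GRCm38.p6) were used for 12 of the 13 genes, as the 250 bases before any annotated start. The core of the interferon-stimulated response element, GAAANNGAAA on either strand, was found in 6 of 12 (50%), against 3.46% of the 27025 genes with a promoter. The gamma-activated sequence (GAS) TTCNNNGAA was found in 4 of 12 (33.3%), against 8.13% of all. The 6 genes with the first element are printed with it in capitals, 5' to 3' on the gene's strand, and overlapping matches run together.
Gbp2 (chr3:142620559-142620658, plus strand): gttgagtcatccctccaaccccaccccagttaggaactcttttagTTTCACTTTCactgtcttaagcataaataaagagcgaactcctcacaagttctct
Gbp3 (chr3:142559954-142560043, plus strand): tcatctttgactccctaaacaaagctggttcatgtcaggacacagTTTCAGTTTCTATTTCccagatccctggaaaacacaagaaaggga
Gbp7 (chr3:142530238-142530335, plus strand): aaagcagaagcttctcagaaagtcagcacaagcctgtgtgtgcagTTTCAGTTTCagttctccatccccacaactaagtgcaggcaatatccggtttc
Igtp (chr11:58199477-58199555, plus strand): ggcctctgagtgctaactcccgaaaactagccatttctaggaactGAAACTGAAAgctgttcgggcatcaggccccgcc
Isg15 (chr4:156200830-156200941, minus strand): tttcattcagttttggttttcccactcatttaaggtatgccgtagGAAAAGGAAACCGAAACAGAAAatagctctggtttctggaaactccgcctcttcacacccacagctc
Socs1 (chr16:10785559-10785664, minus strand): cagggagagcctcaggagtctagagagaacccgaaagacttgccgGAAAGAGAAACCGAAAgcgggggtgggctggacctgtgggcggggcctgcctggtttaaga
Irf1 and Psmb8 are printed with the GAS element in capitals, which Gbp7 and Igtp also hold.
Irf1 (chr11:53769879-53769977, plus strand): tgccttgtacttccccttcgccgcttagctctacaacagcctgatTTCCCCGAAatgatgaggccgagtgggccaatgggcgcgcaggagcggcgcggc
Psmb8 (chr17:34198053-34198151, plus strand): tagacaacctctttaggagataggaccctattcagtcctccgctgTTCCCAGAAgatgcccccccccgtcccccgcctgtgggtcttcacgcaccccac
A match describes the letters of the window and is not evidence of binding.

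The genes of DNA replication and mitosis that passed all fell, though most probe sets did not pass. Of 29 probe sets of DNA replication and S phase, 8 fell, 0 rose and 21 did not pass (median -0.91), and of 31 of mitosis and proliferation, 13 fell, 0 rose and 18 did not pass (median -1.16). Rrm2, the regulated subunit of ribonucleotide reductase, was at 815 and 1115 on day 0 and at 192, -22, 89, 86 and 218 later, 5.83-fold lower as a low estimate (adjusted p = 0.000257). Tk1, thymidine kinase, went from 513 and 844 to 135, 133, 100, 172 and 227, 4.08-fold lower as a low estimate (adjusted p = 0.000203). Both genes were at the floor or at most 227 in each middle culture. The counts were lower without day 0 of experiment B (2 and 4 fell). Mitosis probe sets numbered 7 without day 0 of experiment A and 8 without day 7 of experiment A, and replication probe sets 5 without day 5 of experiment A.

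Other members fell less far or less surely. H2az1, a histone variant, went from 6047 and 3507 to 1362, 1446, 1795, 1428 and 1123, 3.26-fold lower (adjusted p = 0.00045). Top2a, the topoisomerase that untangles chromosomes, was at least 3.49-fold lower on design a (adjusted p = 0.000956). On design b it was 4.11-fold lower as a low estimate (adjusted p = 0.00398), and both probe sets are shared by a family. H2az1 and Top2a kept their calls without each of the 7 cultures. Mki67, a marker of cycling cells, was at 1712 and 1483 on day 0 and at 747, 744, 747, 826 and 855 later. It was 2.04-fold lower (adjusted p = 0.0426), and the call ended without any culture except day 4 of experiment B (adjusted p from 0.0635 without day 7 of experiment A to 0.214 without day 0 of experiment A). Pcna, the sliding clamp of DNA polymerase, went from 1203 and 1526 to 523, 636, 705, 535 and 1071 and did not pass (-1.02 ± 0.41, adjusted p = 0.153).

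On the list of cyclins, CDKs, pocket proteins and E2F factors, which also holds Myc, 2 of 12 probe sets fell and 0 rose (16.7%, against 8.19% of all, median -0.13). Ccnb2 and Cdk1, a cyclin and a CDK, also fell but were counted among the replication and mitosis genes. Myc, a transcription factor of growth, was at 485 and 315 on day 0 and at 3, 78, 148, -3 and 59 later, 2.74-fold lower as a low estimate (adjusted p = 0.000456). Ccne1, cyclin E1 of S phase entry, was 3.89-fold lower as a low estimate (adjusted p = 0.0231), and its call ended without day 7 of experiment A (0.0514). The call also ended without day 0 of experiment A, where the fold was 4.33, or day 0 of experiment B, where it was 3.5. Ccnd1, cyclin D1 of the G1 phase, was at 2904 and 2571 on day 0 and at 3295, 2454, 1201, 2739 and 2284 later, with overlapping groups on a family-shared probe set (adjusted p = 0.739). Hmga2, a chromatin protein of proliferating embryonic cells, went from 1992 and 1687 to the floor in all 5 middle cultures, at least 9.26-fold lower (adjusted p = 3.49e-05).

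Promoters were used for 15 of the 18 genes of replication and mitosis that fell. Here too no share was taken over list members that did not fall, so list membership and the fall cannot be told apart. The cell cycle homology region, TTTGAA on either strand, was found in 8 of 15 (53.3%), against 18.3% of all genes, and the CCAAT box in 10 of 15 (66.7%), against 37.5%. The windows of 4 of these genes are printed with TTTGAA, or its complement on the other strand, in capitals.
Cdk1 (chr10:69352913-69353028, minus strand): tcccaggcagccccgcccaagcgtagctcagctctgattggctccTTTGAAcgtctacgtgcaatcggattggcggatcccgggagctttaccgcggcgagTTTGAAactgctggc
Cks1b (chr3:89418292-89418413, minus strand): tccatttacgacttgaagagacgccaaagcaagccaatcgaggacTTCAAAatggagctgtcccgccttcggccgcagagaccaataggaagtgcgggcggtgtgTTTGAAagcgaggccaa
Mki67 (chr7:135716427-135716540, minus strand): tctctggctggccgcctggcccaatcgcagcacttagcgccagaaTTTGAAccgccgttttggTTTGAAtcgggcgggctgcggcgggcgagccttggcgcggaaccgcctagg
Ube2c (chr2:164769855-164769928, plus strand): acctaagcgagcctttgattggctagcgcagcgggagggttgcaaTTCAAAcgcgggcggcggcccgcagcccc
Of these genes, Ube2c, a ubiquitin-conjugating enzyme of mitotic exit, was at 1384 and 981 on day 0 and at 403, 418, 407, 364 and 494 later. It was 2.81-fold lower (adjusted p = 0.0172, but 0.171 without day 0 of experiment A and 0.0575 without day 0 of experiment B). Cks1b, a CDK subunit, was 4.17-fold lower as a low estimate (adjusted p = 0.0427), and its call ended without either day 0 culture (0.0761 for experiment A, 0.376 for B) and without days 5, 6 or 7 of experiment A (0.0507, 0.0883 and 0.0928).

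Of 30 probe sets of CDK inhibitors and p53 targets 8 rose, 0 fell and 22 did not pass, with a median change of 1.03 and a range from -1.39 to 3.95. With experiment as a block 13 rose, and without day 0 of experiment A 4 did. Gas1, a membrane protein of growth-arrested cells, was at 213 and 377 on day 0 and at 3167, 3373, 6053, 5396 and 4563 later, 15.4-fold higher (3.95 ± 0.55, adjusted p = 0.000163). Ypel3, a growth suppressor and p53 target, went from 961 and 752 to 2845, 3560, 3472, 3344 and 3486, 3.92-fold higher (adjusted p = 0.000105). Pdcd4, an inhibitor of translation, was at 60 and 150 on day 0 and at 734, 782, 720, 667 and 975 later, 5.29-fold higher as a low estimate (adjusted p = 0.000241). In these 3 genes each middle culture was at over 2 times the higher day 0 culture.

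The remaining members gave a mixed record. Gadd45a, a stress protein that restrains CDK1, was at the floor on day 0 and at 726, 539, 479, 683 and 560 later, at least 4.19-fold higher (adjusted p = 0.00341). Ccng1, cyclin G1, was 4.63-fold higher (adjusted p = 0.00529), but 2.86-fold and not past the threshold without day 0 of experiment A (0.149). It was 7.51-fold higher with day 0 of experiment B left out. Cdkn1a, the inhibitor p21, was at 221 and 142 on day 0 and at 315, 447, 433, 575 and 409 later on design a. Neither of its family-shared probe sets passed (1.27 ± 0.60, adjusted p = 0.246 on design a, and 0.83 ± 0.53, adjusted p = 0.452 on design b). Cdkn1b, the inhibitor p27, was at 195 and 370 on day 0 and at 865, 790, 675, 805 and 1480 later on design a, 3.3-fold higher (adjusted p = 0.0267, but 0.256 without day 0 of experiment A). The other 2 probe sets of Cdkn1b, on design b, were dimmer and did not pass (0.24 ± 0.19, adjusted p = 0.577, and 1.11 ± 0.51, adjusted p = 0.231). Trp53 itself has no probe set on these arrays by its symbol.

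**Figure D2:**
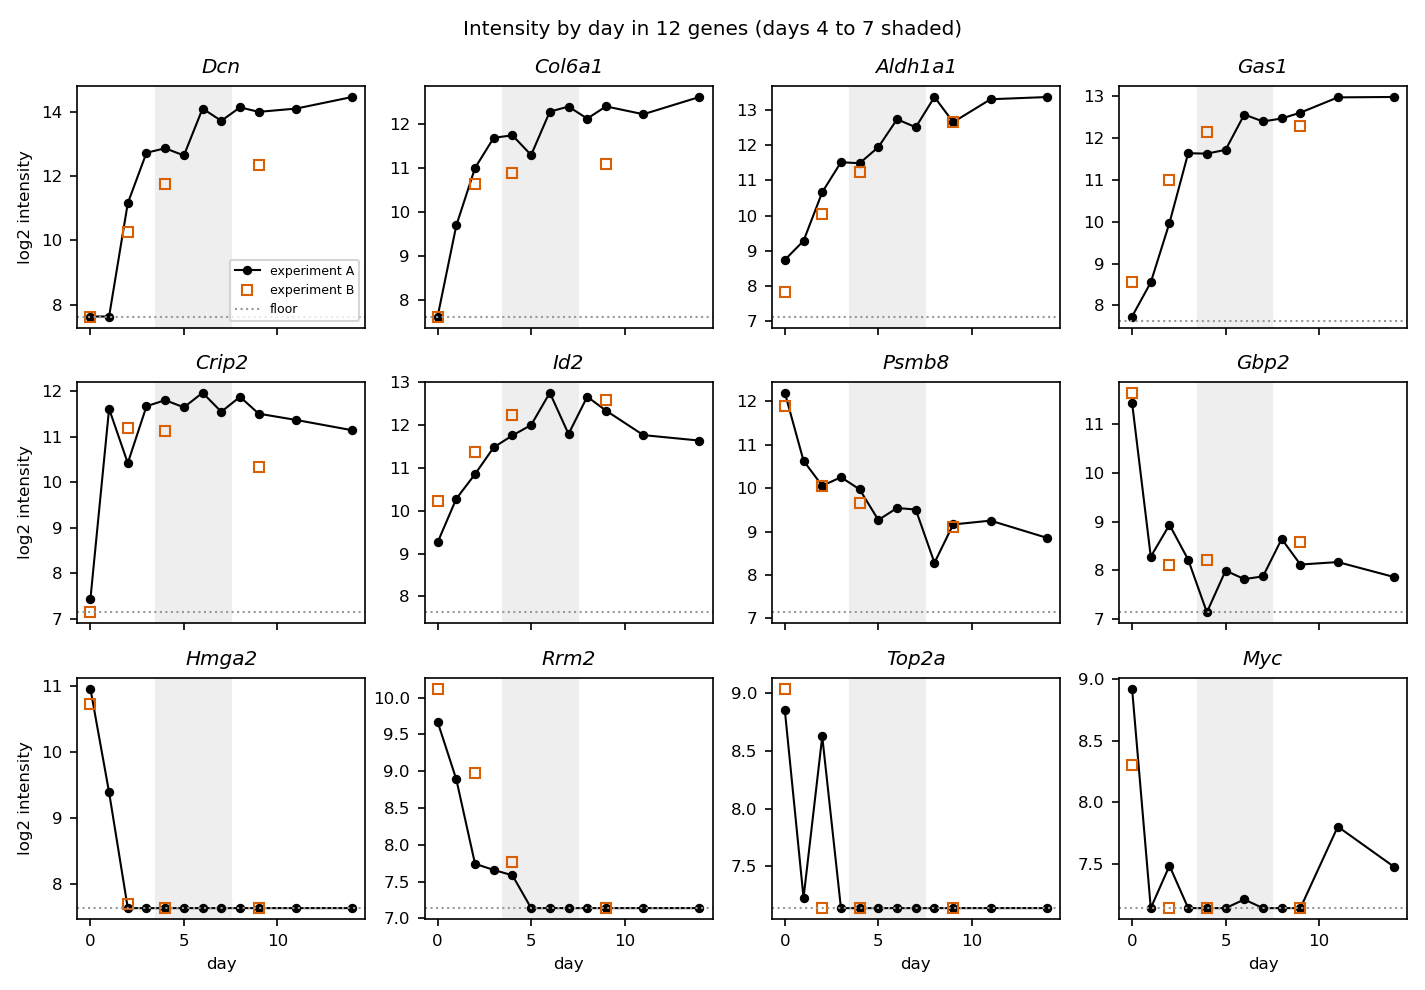
Log2 intensity of 12 genes against day, with experiment A as a black line, experiment B as open squares, days 4 to 7 shaded and the floor dotted. The shaded values of Dcn, Col6a1, Aldh1a1, Gas1, Crip2 and Id2 lie above both day 0 values, and those of Psmb8, Gbp2, Hmga2, Rrm2, Top2a and Myc lie below both.

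Several genes of the extracellular matrix rose. Of 23 probe sets of collagens and collagen processing 7 rose, 0 fell and 16 did not pass (median 0.63), and 2 rose without day 0 of experiment B. Col6a1, a chain of collagen VI, was at 122 and 98 on day 0 and at 3431, 2514, 4980, 5391 and 1893 later, at least 17.1-fold higher (adjusted p = 3.39e-05). Col6a2, its partner chain, went from 351 and 103 to 2269, 1616, 2999, 4939 and 1028, 8.48-fold higher as a low estimate (adjusted p = 0.00203, but 0.0628 without day 0 of experiment B). In both chains days 6 and 7 of experiment A were the highest of the middle cultures and day 4 of experiment B the lowest. Pcolce, which helps to cleave procollagen, rose 3.75-fold (adjusted p = 0.00398) and P4ha1, a prolyl hydroxylase, 2.83-fold (adjusted p = 0.00398). Col5a1, a chain of collagen V, rose 2.89-fold as a low estimate (adjusted p = 0.0189) and Serpinh1, the collagen chaperone, 2.44-fold on a family-shared probe set (adjusted p = 0.00628). The calls of Pcolce (0.0711), P4ha1 (0.094) and Col5a1 (0.237) ended without day 0 of experiment B, and that of Serpinh1 (0.087) without day 0 of experiment A. Of the chains of collagen I, Col1a2 was at or under the floor on every middle and day 0 array. None of the 3 probe sets of Col1a1, all family-shared, passed (adjusted p from 0.584 to 0.793).

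Proteoglycans and matricellular proteins moved in both directions, with 7 of 30 probe sets higher, 3 lower and 20 not passing (median 0.33). Without day 0 of experiment B 4 rose and 1 fell. The higher ones were mostly proteoglycans. Beside Dcn, Agrn, the proteoglycan agrin, went from 85 and 199 to 1283, 1215, 663, 799 and 976, 5.72-fold higher (adjusted p = 0.000538). Sdc2, the membrane proteoglycan syndecan 2, was at 81 and 172 on day 0 and at 852, 627, 899, 875 and 1027 later, 5.43-fold higher (adjusted p = 0.00154). Both folds are low estimates, and neither gene had a middle culture near the day 0 range. Ogn, osteoglycin, rose at least 5.03-fold (adjusted p = 0.00584, but 0.062 without day 0 of experiment B) and Mgp, matrix Gla protein, at least 5.43-fold on a family-shared probe set (adjusted p = 0.00222).

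The decreases among matricellular proteins were Ccn2, Fbln2 and Ccn1. Ccn2, connective tissue growth factor, was at 1161 and 1754 on day 0 and at 12, -87, -30, 69 and 133 later, at least 10.1-fold lower (adjusted p = 0.000176). Fbln2, fibulin 2, went from 2023 and 1964 to 634, 778, 735, 579 and 554, 3.06-fold lower (adjusted p = 0.00556, but 0.0606 without day 0 of experiment B). Acta2, smooth muscle actin, was at 3129 and 1001 on day 0 and at 80, 210, -30, -148 and -58 later, 8.83-fold lower as a low estimate (adjusted p = 0.00017). Its day 0 cultures differed, and the fold was 5.0 without day 0 of experiment A and 15.6 without day 0 of experiment B.

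Of 15 probe sets of matrix proteases and their inhibitors 2 rose and 1 fell (median 0.33). Plat, tissue plasminogen activator, was at 848 and 201 on day 0 and at 2600, 2222, 2790, 2401 and 1270 later, 5.28-fold higher (adjusted p = 0.00584). Its fold was 10.8 without day 0 of experiment A and 2.57 without day 0 of experiment B, where the call ended (0.278). Serpinf1, a secreted serpin, rose 2.99-fold (adjusted p = 0.00284). Timp1, a metalloprotease inhibitor, was 3.12-fold lower (adjusted p = 0.0373), and its call ended without either day 0 culture (0.158 for experiment A, 0.208 for B) or without a culture of day 4 or 7 (0.054 to 0.0799).

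Growth factor genes of the IGF and TGF-beta families had 5 of 26 probe sets higher and 0 lower (19.2%, against 8.19% of all, median 0.19). Igfbp2, a secreted binding protein of insulin-like growth factors, was at the floor on day 0 and at 2436, 1172, 808, 966 and 2377 later, at least 9.9-fold higher (adjusted p = 0.00114). Here the day 4 cultures of both experiments were the highest. Tgfb3, a ligand, rose at least 4.71-fold (adjusted p = 0.000748). Smad1, which carries BMP signals to the nucleus, went from 219 and 318 to 1116, 1008, 1133, 901 and 1022, 3.91-fold higher (adjusted p = 0.0024).

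Genes of otic and inner ear development had 4 of 31 probe sets higher and 0 lower (median 0.58). That is 12.9%, against 8.19% of all probe sets that passed and 3.61% that rose. With experiment as a block 8 were higher, and fewer without day 0 of experiment B. Bmp4, a ligand of the sensory patches, was at 886 and 496 on day 0 and at 1450, 2026, 1900, 2158 and 1169 later, 2.56-fold higher (adjusted p = 0.00584, but 0.2 without day 0 of experiment B). Id2, an inhibitor of helix-loop-helix factors and a BMP target, went from 613 and 1198 to 3451, 4082, 6878, 3534 and 4821, 5.13-fold higher (adjusted p = 0.000634). Gata3, a transcription factor that the cochlea needs, was under the floor of 198 on day 0, at 151 and 190, and at 431, 222, 660, 479 and 571 later. The groups did not overlap, yet the change did not pass (1.17 ± 0.46, adjusted p = 0.144). Zfpm1, a cofactor of GATA factors, was 3.27-fold higher (adjusted p = 0.0424), and the call ended without any culture except day 6 of experiment A (adjusted p from 0.0608 without day 4 of experiment B to 0.227 without day 0 of experiment A). The fourth member on this list that rose was Cdkn1b, on its design a probe set. Of the other markers of otic epithelium, Pax2 (adjusted p = 0.477 and 0.728), Eya1 (0.609) and Dlx5 (0.72) did not pass.

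On the hair cell list 0 of 11 probe sets passed, with a median change of 0.01. Of 11 hair cell markers used to check the label, 6 were on the arrays, and Calb2 alone was above the floor on all 5 middle arrays, at 395 to 951 against 290 to 569 on day 0 (adjusted p = 0.369). Myo7a, the myosin of hair bundles, was at 300 and 198 on day 0 and at 180, 298, 238, 269 and 129 later, with overlapping groups (adjusted p = 0.89). Atoh1, the factor that starts hair cell differentiation, and Gfi1 were at or under the floor on all 7 arrays. Pou4f3 has no probe set here by its symbol.

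Supporting cell markers gave 2 of 10 probe sets higher and 1 lower (median 0.22). Krt18, a keratin of simple epithelia, was the one that fell, from 5437 and 4234 to 1205, 1067, 713, 810 and 982, 5.11-fold (adjusted p = 0.000468). Sox2, Hes5, Gjb2, Gjb6 and Fgfr3 were at or under the floor on all 7 arrays. On the Notch list 2 of 24 probe sets rose (median 0.28), and the 8.33% that passed is near the 8.19% of all probe sets. Notch3, a receptor, went from 312 and 178 to 1556, 1417, 1338, 904 and 1588, 5.37-fold higher as a low estimate (adjusted p = 0.000521). Tle5, a member of the Groucho family, rose 3.53-fold (adjusted p = 0.00883). Its call ended without day 0 of experiment A (3.19-fold) or B (3.91-fold). Notch1 did not pass on design a (1.45 ± 0.46, adjusted p = 0.06, which became 0.0414 on leaving out day 5 of experiment A) or on design b (adjusted p = 0.442). The design a probe set was at or under the floor on day 0, and its result turned on the treatment of dim values, 6.01-fold higher with a lower floor (adjusted p = 0.00209), 6.8-fold on an arcsinh scale (0.000781) and a change of 0.20 with a higher floor (0.699). It also passed with array noise as a covariate (0.0346). Jag1 has no probe set here by its symbol.

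Neuronal genes gave 1 of 8 probe sets higher, Scg2, a granin of secretory granules (3.38-fold, adjusted p = 0.0264), and 1 lower, the tubulin gene Tubb3 (2.31-fold, adjusted p = 0.0435). Both calls ended without day 0 of experiment B (0.312 and 0.0826). That of Scg2 also ended without day 6 or 7 of experiment A (0.0578 and 0.0614), and that of Tubb3 without day 0 of experiment A (0.315), day 4 of either experiment (0.0607 for A, 0.068 for B) or day 7 of A (0.0849).

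Markers of other cell types did not pass on 4 lists. Of the muscle (17 probe sets), melanocyte and glia (9), macrophage and blood (20) and endothelial (5) lists, 0 probe sets passed. In a line from a cochlear epithelium, Cdh1, Epcam and Krt19 were at or under the floor on all 7 arrays. Cd74, the invariant chain of MHC class II, was at 7792 to 12975 in the middle days and 8223 to 12473 on day 0. Ptprc, the leukocyte antigen CD45, was at 753 to 2354 and 595 to 1305. Of the macrophage markers, Cd14 was above the floor on all 7 arrays, at 499 to 989 and 326 to 688. Cd68 was above it on 4 of the 5 middle arrays (112 to 359, against 134 to 191 on day 0). Csf1r, the receptor of macrophages, was under the floor on all 7 arrays. Dct, a melanocyte enzyme, was at 353 to 2456 in the middle days and 278 to 1357 on day 0, and Myog, a muscle factor, at 448 to 2080 and 480 to 1158. Neither passed (adjusted p = 0.723 and 0.678), and the part of such transcripts in the results was not tested. Vim, the intermediate filament vimentin, was at 6719 and 5831 on day 0 and at 1856, 2761, 2702, 2137 and 5375 later and did not pass (-1.18 ± 0.45, adjusted p = 0.13), but did without day 4 of experiment B (0.0405). Of 19 probe sets of mesenchymal markers 2 rose (Dcn and Postn) and 3 fell (Acta2, Fbln2 and Cd44). Postn, periostin, rose at least 5.23-fold (adjusted p = 0.014, but 0.081 and 0.11 without day 0 of experiments A and B), and Cd44, a hyaluronan receptor, fell at least 1.34-fold (adjusted p = 0.0263, but 0.697 without day 0 of experiment B). Of 15 epithelial probe sets 2 rose, Tjp1 of tight junctions (2.35-fold, adjusted p = 0.00973) and the integrin gene Itgb4 (at least 4.86-fold, adjusted p = 0.0442), and 1 fell, Krt18. The call of Tjp1 ended without day 0 of experiment B (0.0968), and that of Itgb4 without any culture except day 4 of experiment B (0.07 to 0.224).

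**Figure D3:**
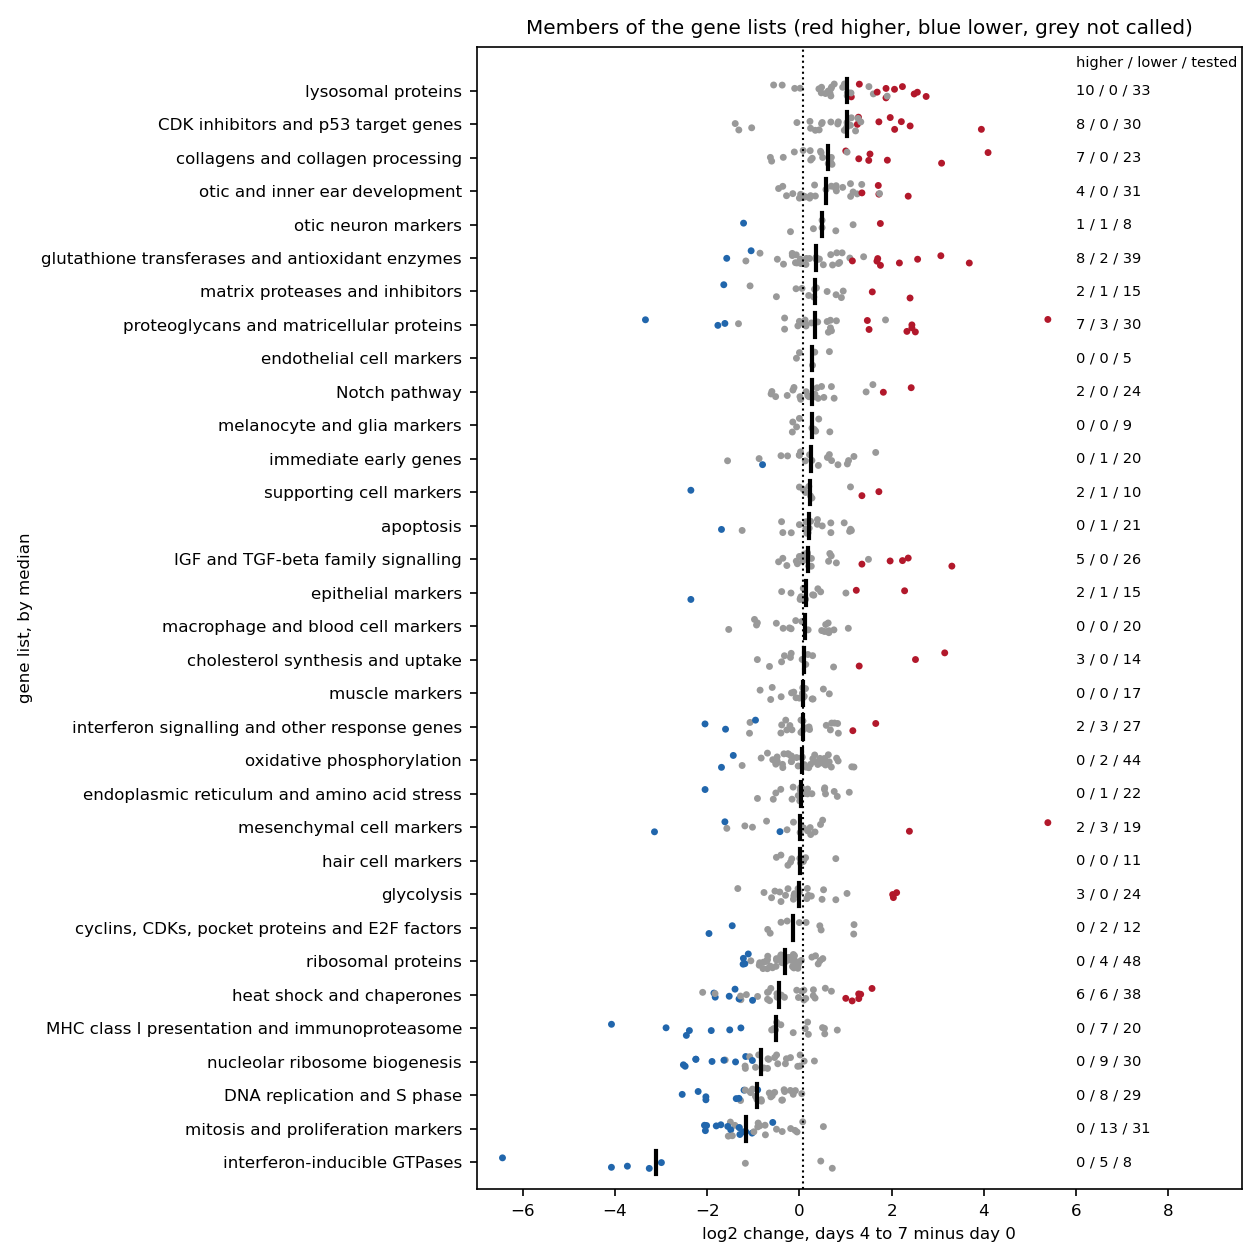
Log2 change of each probe set on the 33 gene lists, with lists ordered by their median (black bar) and the dotted line at the median of all probe sets, 0.08. The numbers at the right give how many rose, fell and were tested, from 0, 5 and 8 in interferon-inducible GTPases at the bottom to 10, 0 and 33 in lysosomal proteins at the top.

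Lysosomal proteins had the highest median of the lists, 1.04, with 10 of 33 probe sets higher, 0 lower and 23 not passing. With experiment as a block 16 rose, and without day 0 of experiment B 6 did. Ctsd, the aspartic protease cathepsin D, was at 1708 and 1929 on day 0 and at 12631, 14248, 17831, 15337 and 5498 later, 6.72-fold higher (2.75 ± 0.39, adjusted p = 0.000171). Grn, progranulin, went from 479 and 712 to 2632, 2633, 2928, 2596 and 1643, 4.18-fold higher on a family-shared probe set (adjusted p = 0.000553). In both genes day 4 of experiment B was the lowest middle culture and still at over 2 times each day 0 culture. Ctsa, the protective protein cathepsin A, rose 5.89-fold on a family-shared probe set (adjusted p = 0.00461). Smpd1, acid sphingomyelinase, rose 4.71-fold (adjusted p = 0.0114). The membrane protein gene Lamp2 rose 3.68-fold (adjusted p = 0.0116) and Hexa, a hexosaminidase chain, 3.67-fold (adjusted p = 0.00903). The folds of Ctsa and Hexa are low estimates. Without day 0 of experiment A the calls of Ctsa (0.0515), Smpd1 (0.112), Lamp2 (0.116) and Hexa (0.104) ended, and without day 0 of experiment B that of Smpd1 (0.058). The E-box CACGTG lay before the start of 2 of the 7 genes with a promoter entry (28.6%), Ctsa and Ctsd, against 6.86% of all genes. It is not particular to these genes, as it was found in 4 of 15 (26.7%) of the replication and mitosis genes that fell. Of the nucleolar genes that fell 0 of 7 had it, and of the interferon genes that fell 1 of 12 (8.33%). No share was taken over lysosomal list members that did not rise. The window of Ctsa is printed with the match in capitals.
Ctsa (chr2:164833716-164833772, plus strand): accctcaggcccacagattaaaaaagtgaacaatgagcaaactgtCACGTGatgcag

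Glutathione transferases and antioxidant enzymes had 8 of 39 probe sets higher and 2 lower (median 0.36), and 5 higher and 0 lower without day 0 of experiment B. Aldh1a1, which makes retinoic acid, was at 429 and 229 on day 0 and at 2863, 3926, 6784, 5799 and 2411 later, 12.9-fold higher (3.69 ± 0.48, adjusted p = 8.71e-05). Gstm2, a glutathione transferase, went from 179 and 268 to 1757, 1456, 2733, 2447 and 1220, 8.38-fold higher (adjusted p = 0.000176), and Gstm1, of the same cluster, rose 5.91-fold (adjusted p = 0.000241). These 3 genes were highest on days 6 and 7 of experiment A. Near-identical members of this transferase family can share probes. Nfe2l2, the transcription factor NRF2 of antioxidant genes, was at 220 and 259 on day 0 and at 1003, 1015, 1105, 1419 and 892 later, 4.5-fold higher (adjusted p = 0.000105). Cat, catalase, rose 3.25-fold as a low estimate (adjusted p = 0.0014).

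Cholesterol synthesis and uptake and glycolysis each had 3 probe sets higher and 0 lower, of 14 and 24 (medians 0.1 and -0.01). That is 21.4% and 12.5% of them, against 8.19% of all probe sets that passed and 3.61% that rose. Pltp, which transfers phospholipids between lipoproteins, was at the floor on day 0 and at 1449, 1386, 1360, 1342 and 843 later, at least 8.89-fold higher (adjusted p = 7.16e-05). Vldlr, a lipoprotein receptor, rose 5.73-fold as a low estimate (adjusted p = 0.00301), and Lrp1, another, 2.46-fold (adjusted p = 0.0178, but 0.121 and 0.0915 without day 0 of experiments A and B). Pfkl, a phosphofructokinase, went from 417 and 328 to 2019, 1063, 1794, 1602 and 1246, 4.07-fold higher (adjusted p = 0.000663). Ldhb, a lactate dehydrogenase chain, rose at least 4.31-fold on a family-shared probe set (adjusted p = 0.0133, but 0.0778 and 0.105 without day 0 of experiments A and B).

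Of 30 probe sets for factors of ribosome assembly in the nucleolus 9 fell, 0 rose and 21 did not pass (median -0.83, range -2.52 to 0.33). Nop56, a core protein of box C/D particles, was at 681 and 955 on day 0 and at 91, 46, 13, -33 and 92 later, at least 5.72-fold lower (adjusted p = 2.64e-05). Ncl, nucleolin, remained well measured, with 4674 and 5638 on day 0 and 1634, 1203, 1071, 1195 and 1994 later, 3.72-fold lower (adjusted p = 0.00174). Fbl, the methylase fibrillarin, was 5.57-fold lower (adjusted p = 0.0133) and Gar1, of box H/ACA particles, 4.74-fold lower as a low estimate (adjusted p = 0.00682). Without day 0 of experiment B the calls of Fbl (3.42-fold, 0.282) and Gar1 (3.19-fold, 0.176) ended, and without day 0 of experiment A Fbl was 9.06-fold lower. Eif6, which keeps the large ribosomal subunit free, was at least 6.1-fold lower (adjusted p = 3.11e-05). Of 48 ribosomal protein probe sets 4 fell and 0 rose (median -0.32), and the 8.33% that passed is near the 8.19% of all. On this list 8 fell with experiment as a block, and 2 without day 0 of either experiment or without day 5, 6 or 7 of experiment A. Rpl29 went from 5735 and 4831 to 2629, 1948, 2457, 2109 and 2215, 2.33-fold lower on a family-shared probe set (adjusted p = 0.00161).

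Heat shock proteins and chaperones moved both ways, with 6 of 38 probe sets higher and 6 lower (median -0.44). With experiment as a block 11 fell, and without day 0 of experiments A and B 2 and 3 rose and 3 and 3 fell. Cryab, a small heat shock protein, went from 1413 and 1504 to 5043, 4773, 4159, 4259 and 3626, 2.98-fold higher on a family-shared probe set (adjusted p = 0.000663). Dnajc2, a ribosome-bound cochaperone, was at 491 and 334 on day 0 and at the floor in each middle culture, at least 2.87-fold lower (adjusted p = 2.51e-05). Of the subunits of the cytosolic chaperonin, Cct3 was 3.55-fold lower as a low estimate, on a family-shared probe set (adjusted p = 0.00473). Cct8 was 2.63-fold lower (adjusted p = 0.0272). Both calls ended without day 0 of experiment B, where the folds were 2.82 and 2.26. That of Cct8 also ended without day 0 (0.0679), day 5 (0.0574) or day 7 of experiment A (0.058). The constitutive Hspa8 did not pass on either design (-0.69 ± 0.27, adjusted p = 0.129, which was 0.0486 with experiment as a block, and 0.34 ± 0.41, adjusted p = 0.743), nor did Hsp90aa1 (adjusted p = 0.442 and 0.608). Both probe sets of Hspa8 and the design b probe set of Hsp90aa1 are family-shared.

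Other stress and housekeeping lists held few changes, with 4.55% to 5% of their probe sets passing against 8.19% of all. On the list of endoplasmic reticulum and amino acid stress 1 of 22 probe sets fell, Asns, asparagine synthetase, from 1710 and 1512 to 367, 340, 461, 523 and 298 (4.13-fold, adjusted p = 0.00106). Of 44 probe sets of oxidative phosphorylation 2 fell, on family-shared probe sets of Cycs (3.23-fold, adjusted p = 0.00204) and Cox5a (2.7-fold, adjusted p = 0.0176, but 0.113 and 0.111 without day 0 of experiments A and B). Cycs, cytochrome c, was also the 1 of 21 probe sets on the apoptosis list that fell. Of 20 probe sets of immediate early genes 1 fell, Fosl1 (at least 1.74-fold, adjusted p = 0.0478). It did not pass with experiment as a block (0.0576) or without any culture except day 0 of experiment A (0.06 to 0.93). Its fold was 2.87 without day 0 of experiment A and 1.06 without day 0 of experiment B. Gapdh, a glycolytic enzyme often taken as a reference, was at 16676 and 7648 on day 0 and at 13972, 14399, 12332, 16468 and 7890 later on a family-shared probe set (adjusted p = 0.882).

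Further genes with large changes lay outside these lists. Crip2, a LIM-domain protein, was at 172 and 78 on day 0 and at 3575, 3205, 4001, 2995 and 2220 later, 20.2-fold higher as a low estimate (4.33 ± 0.37, adjusted p = 8.06e-07). Synpo, the actin-associated protein synaptopodin, was at 26 and 36 on day 0 and at 1931, 1483, 1640, 1677 and 1587 later, at least 11.8-fold higher (adjusted p = 1.23e-05). The 5 middle cultures of Synpo differed little among themselves. Cd47, a surface signal that inhibits phagocytosis, rose 8.45-fold (adjusted p = 0.000854) and Maged2, of the MAGE family, 7.31-fold (adjusted p = 0.002). Ube2h, a ubiquitin-conjugating enzyme, rose 8.17-fold (adjusted p = 2.97e-05) and Nrep 6.63-fold on a family-shared probe set (adjusted p = 0.00301). These 4 folds are low estimates. Among the decreases were Slc25a5, a mitochondrial ADP/ATP carrier (8.71-fold, adjusted p = 0.000526), and Pa2g4, a regulator of growth (6.21-fold as a low estimate, adjusted p = 0.00541). Both are on family-shared probe sets. The call of Pa2g4 ended without day 0 of experiment B, where the fold was 5.78.

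The size of change in each middle culture is given for the 633 probe sets, which these arrays also chose. The median change of the 279 higher ones was 1.68, 1.6, 1.69 and 1.72 on days 4, 5, 6 and 7 of experiment A and 1.54 on day 4 of experiment B, and that of the 354 lower ones -1.45, -1.5, -1.54, -1.55 and -1.18. The floor caps the falls, and 127, 145, 154, 153 and 84 of the 354 were at it in these cultures. Day 4 of experiment B was the lowest of the 5 cultures in 103 of the 279 higher ones. Taken within each experiment, the change from day 0 to day 4 had the same sign in both for 631 of the 633, and 2 had no change in one of them, but these arrays also chose the 633. Over all 7726 probe sets the day 4 changes of the experiments, which share no array, correlated at r = 0.661 and rho = 0.547, as a description over probe sets with many values at the floor.

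**Figure D4:**
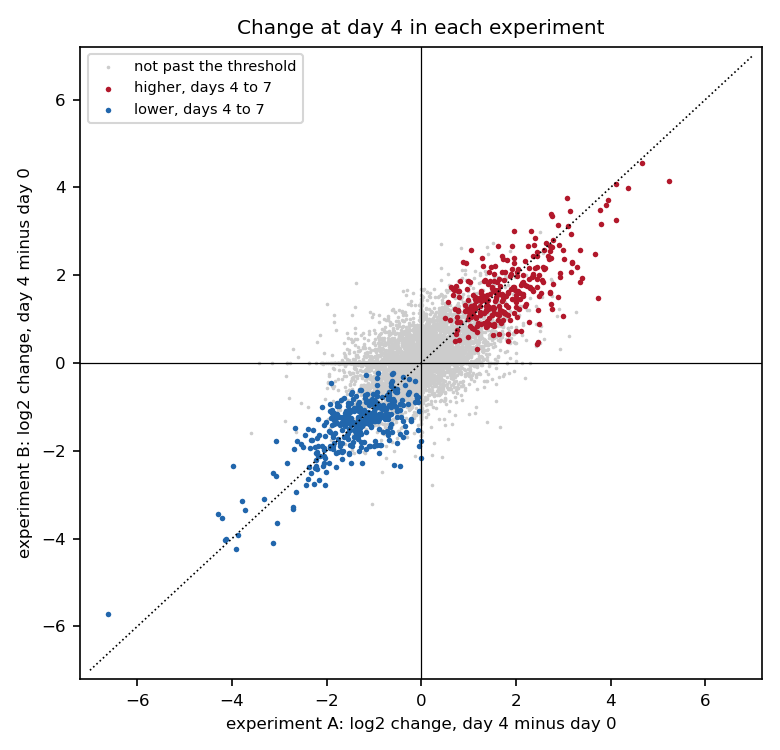
Change from day 0 to day 4 in experiment B against that in experiment A, each from 1 array per day, for 7726 probe sets on a log2 scale, with the line of equal change dotted. The 279 probe sets higher (red) and 354 lower (blue) over days 4 to 7 lie in the upper right and lower left, with 2 on an axis.

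Against the days on either side the middle days differed less than against day 0. Of 7726 probe sets, 0 passed against the early days 1 to 3 (0%, smallest adjusted p = 0.114, 382 at an unadjusted p under 0.05), and 0 passed in the late days 8 to 14 against the middle days (0%, smallest adjusted p = 0.177, 289 at an unadjusted p under 0.05). Without day 3 of experiment A 26 passed against the early days, and without day 9 of experiment B 3 passed late against middle. With experiment as a block 3 passed against the early days, the 2 with a symbol being Timm10b, of mitochondrial import (from a mean of 294.3 to 146.7), and the chemokine gene Cxcl12 (from 1149 to 527.3), both lower. With the block 4 passed late against middle, and among them Igfbp7, an IGF-binding protein (from 1880 to 480.4), and Fn1, fibronectin (from 1712 to 630.2), fell, and Ddit3, the stress factor CHOP, rose (from 200.7 to 560.4). These genes were chosen after their values were seen. Means in the early, middle and late days were 1328, 4032 and 8540 for Aldh1a1, 1255, 4369 and 6494 for Gas1, 799.8, 1697 and 2859 for Bmp4, and 2778, 938.8 and 769.7 for Krt18. None of the steps of these 4 genes from early to middle or from middle to late days passed. From day 0 to the early days Aldh1a1 (adjusted p = 0.0219) and Gas1 (0.0411) passed, and Bmp4 (0.878) and Krt18 (0.407) did not.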

How the data were processed

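The authors' deposited intensities, on a linear scale, were used as given: per the values, they are background-subtracted whole numbers, with a trimmed mean of 300.4 to 300.8 on each array. The software behind them is not given in the sources used here. Each design (6584 and 6595 probe sets, 61 controls left out of each) was fitted alone. The floor was the 75th percentile (quantile 0.75) of the size of the negative values, and 4294 and 3432 probe sets above it on at least 2 of 16 arrays were tested. limma 3.58.1 in R 4.3.3 (lmFit, eBayes with trend and robust, two-sided) compared day 0 (n = 2), early (n = 4), middle (n = 5) and late days (n = 5) on 12 residual degrees of freedom. The samples of a group are its days, and ties at the floor hide spread, which can make p too small. The code was tested on simulated data.

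Symbols came from the platform annotation (1 symbol for 5541 and 2001 probe sets, several for 197 and 27, none for 785 and 4506), updated by gene ID to RefSeq (5532 and 1993 matched). Of the 633 that passed, 444 had 1 symbol and 123 were family-shared probe sets, whose gene is uncertain. Named genes were the 15 largest changes in each direction with 1 symbol and groups that did not overlap, up to 6 that passed per gene list, and a fixed set of cell cycle, interferon, otic and reference genes. The grouping of days, the lists and the fixed genes were chosen with earlier results of these data known. Experiment pairs the samples: differences between experiments B and A correlated from day to day (6 pairs, r = 0.326 to 0.702). Alternatives were other floors, scales, filters, covariates and sets of arrays. Leaving out each culture in the comparisons with early and late days was added after seeing the data.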

Additional observations from a re-analysis of the deposited data

Results flagged for a closer look

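Outlying cultures among the 5 of the middle days (Dixon's test, which flags about 1 in 20 groups by chance) were found for 14 of 133 named probe sets tested, 13 of them among those that had passed. On the log2 scale, day 4 of experiment B stood low for B2m (12.7, nearest 13.9), Grn (10.7, nearest 11.3), Pcolce (12.9, nearest 13.9), Plat (10.3, nearest 11.1) and Pltp (9.72, nearest 10.4). It stood high for Ccne1 (9.03, nearest 7.63), Nsun2 (8.37, nearest 7.2) and Pola2 (7.66, nearest 7.14). Day 4 of experiment A stood high for Iigp1 (8.03, nearest 7.14) and low for Ypel3 (11.5, nearest 11.7). Day 5 of experiment A stood high for Acta2 (7.71, nearest 7.63) and day 6 for Myc (7.21, nearest 7.14). Day 7 stood high for Top2a on design b (8.16, nearest 7.68) and low for Tyms (7.14, nearest 7.94). For Acta2, Ccne1, Iigp1, Myc and Pola2 the other 4 cultures were at the floor, so the gap has no spread behind it.

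Among array controls, day 6 of experiment A stood apart in the 3' to 5' ratio of Gapdh on design a (2.65, nearest 1.18) and in the 5' signal of 18S ribosomal RNA on design b (7639, nearest 2807). The design b probe set of Gapdh moved by 0.0449 from day 0 to day 4 in experiment B. In experiment A it moved by -0.23 on average over days 4 to 7, and by -0.255 at day 4 alone. These changes have opposite signs, the difference was not tested, and neither is part of a change that passed.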

How the results depend on the processing

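The 633 probe sets that passed against day 0 became 959 with experiment as a replicate block and 345 with day 4 alone against day 0 with experiment as a replicate block, and 321 to 717 on leaving out each culture. All other settings gave 438 to 918. The share that was higher, 44.1% of those that passed, was 53.1% with a lower floor (314 higher, 277 lower), 34.1% with a higher floor (206 higher, 398 lower) and 55.5% on an arcsinh scale (334 higher, 268 lower), so the balance of increases and decreases depends on how dim values are treated. Against the early days 0 became 3 with the block, 3 with eBayes without trend and robust, and 0 to 26 on leaving out each culture. Late against middle 0 became 4 with the block and 0 to 3 on leaving out each culture. No named gene that passed changed direction under any setting. Of 116 named probe sets that passed, 115 still did with the block, 77 in experiment A alone, 84 and 69 on leaving out day 0 of experiments A and B. All 30 genes with the largest changes passed in each setting that tested them, except Nrep with a higher floor and in experiment A alone, Pa2g4 on the arcsinh scale, Col6a2 and Pa2g4 without day 0 of experiment B, and Psmb9, Maged2, Acta2, Ctsd and Pa2g4 with day 4 alone. The causes were not tested. With 2 cultures at day 0 and many values at the floor, the size of a fall can be measured only where the signal stayed above the floor.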
